A study of Mus musculus with 9 samples.

Results

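A set of 51 genes that encode extracellular matrix proteins other than collagen chains, the enzymes that process and cross-link collagen, the surface proteins of fibroblasts and mural cells, and the transforming growth factor-beta (TGF-beta) ligands was examined in mouse tibialis anterior muscle. They were chosen by name, from a list of symbols, with earlier results of these data known. Each was read on the probe set with the highest mean signal among those annotated to that symbol alone. Of the 51 genes, 49 had such a probe set and 48 were tested, among 13662 genes tested on the whole array. Fbn1, which encodes fibrillin-1, and Loxl2, a lysyl oxidase whose probe sets carry a second symbol, had no probe set of their own and were not analysed here. Mfap4, a microfibril-associated protein, stayed between 4.0 and 7.2 on the 9 arrays, below the signal of 50 required for testing. Ctgf was read under its current symbol, Ccn2. On the probe sets chosen, all 48 genes tested had a mean signal of 50 or more in each of the 3 groups. No gene therefore entered only through the group in which it was high.

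The study asked whether turmeric extract (TE), a water extract of the rhizome of Curcuma longa, affects the muscle atrophy caused by dexamethasone (DEX), a synthetic glucocorticoid. Male C57BL/6J mice, 15 weeks old, received saline (control group), DEX at 5 mg/kg body weight (DEX group), or the same dose of DEX with a diet containing 2% TE (DEX + TE group). All mice ate an AIN93-based diet and were injected intraperitoneally each day for 7 days. The TE diet started 5 days ahead of the first injection in the methods, whereas the sample titles place turmeric after DEX. For the arrays, 3 mice per group whose body and muscle weights were near the average each gave RNA for 1 array, so that the spread between arrays came from mice selected to be typical. No group analysed here received TE without DEX.

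Skeletal muscle fibres are embedded in a connective tissue that transmits force to the tendon and holds vessels, nerves and stem cells in place. Fibroblasts and fibro-adipogenic progenitors make most of this matrix, whereas the basement membrane is made by fibres and vessels as well. Small proteoglycans and glycoproteins regulate how collagen fibrils are built, and TGF-beta is the best known inducer of matrix genes. Because whole muscle was used, fewer cells of a type and less RNA per cell cannot be told apart in any result below.

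Compared with control, DEX muscle had lower signals for most of these genes. Pcolce, which encodes the procollagen C-proteinase enhancer, fell by 1.24 on the log2 scale, whereas Thbs1, which encodes thrombospondin-1, rose by 2.06. These were the only members called, a call being an adjusted p under 0.05 with a log2 difference of at least 0.6 in limma, adjusted over all probe sets tested. Calls toward lower signal thus took in 1 of 48 members beside 0.322% of all genes tested, and calls toward higher signal 1 of 48 beside 0.278%. By value, 39 of the 48 members were lower and 9 were higher in DEX than in control. The median log2 difference of the members was -0.35, beside -0.03 for all genes tested, and the members ranged from -1.74 for Postn to 2.06 for Thbs1.

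Without adjustment, 17 of 48 members (35.4%) were lower at a p under 0.05 in limma, against 9.15% of all genes, and 5 members were higher, against 6.16%. In 16 members all 3 DEX arrays lay below all 3 control arrays, which was so for 13.6% of all genes. In 5 members the DEX arrays all lay above the control arrays, against 9.66% of all genes. Lower signal took in a larger share of the members than of the genes at large, while 10.4% of the members had higher signal on either count. The members were chosen with earlier results of these data known, so that these shares are a description and not a test. The count of 17 was 10 without control replicate 2 and 11 without control replicate 3, and the count of 5 higher members was 3 without control replicate 1, DEX replicate 1 or DEX replicate 2.

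**Figure D1:**
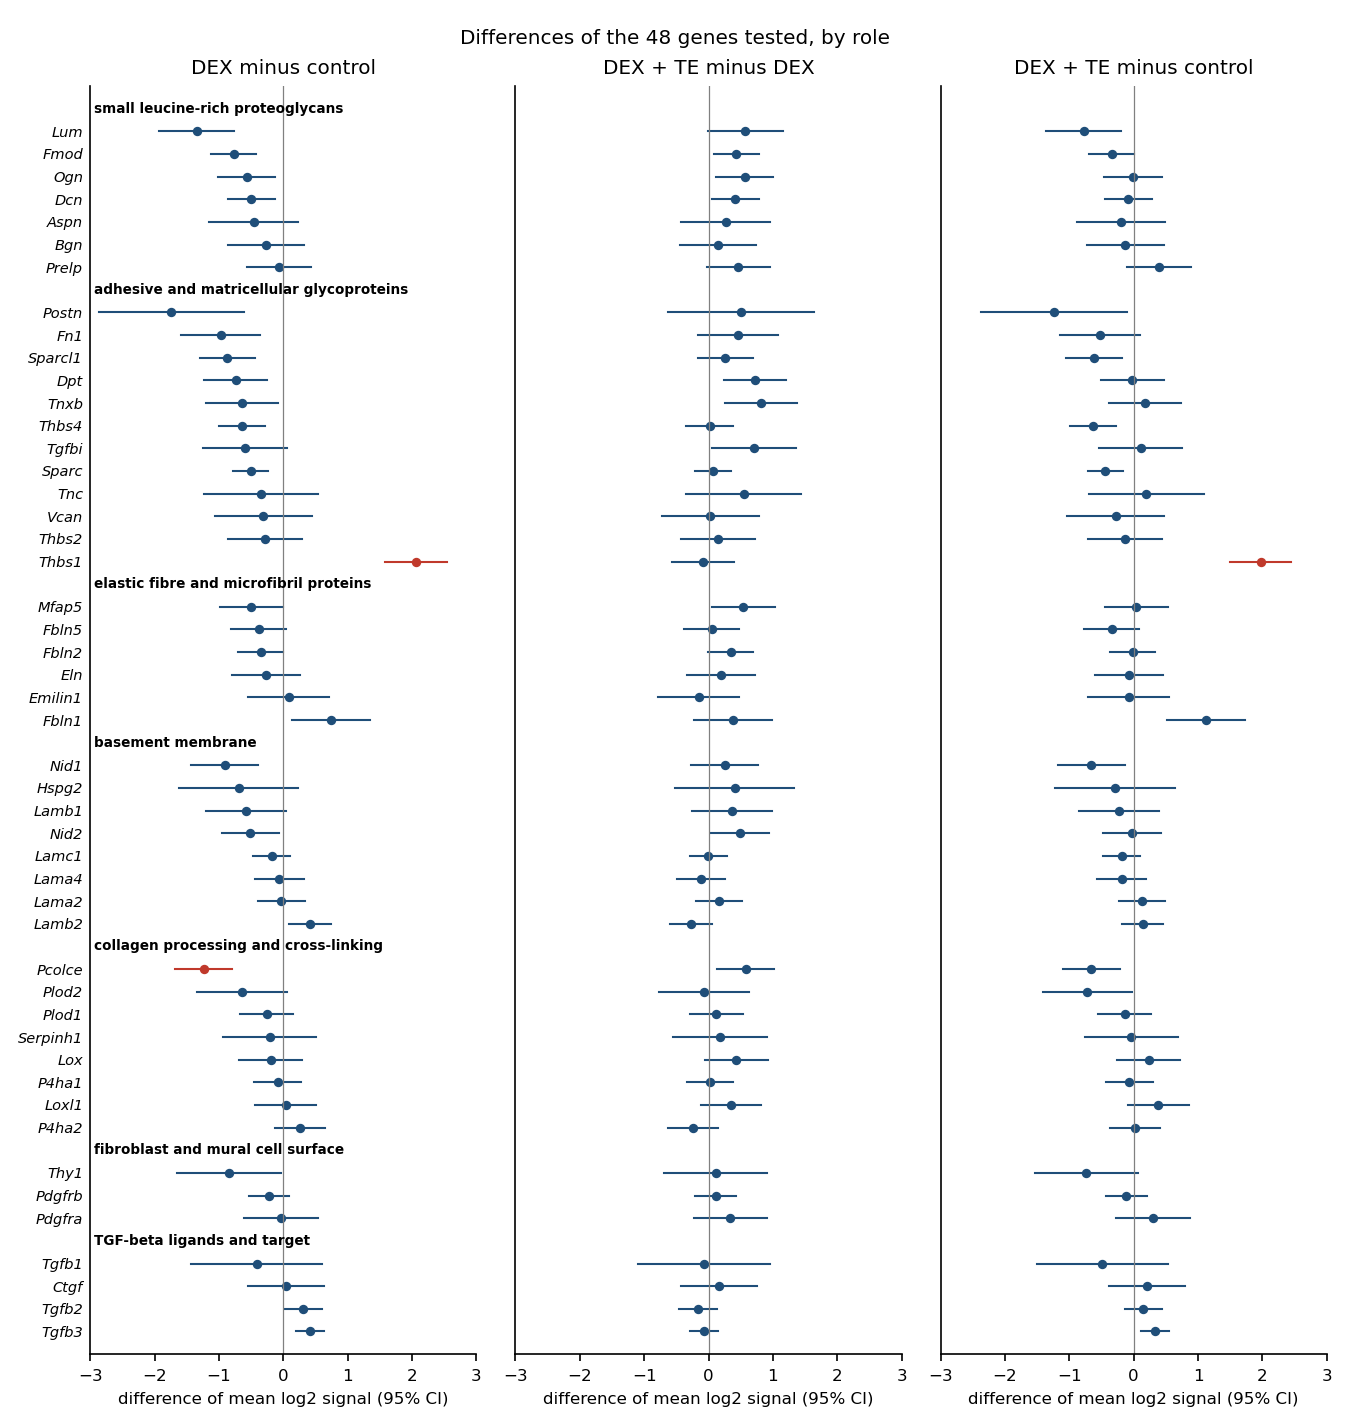
Difference of mean log2 signal for each of the 48 genes tested, in rows grouped by role, for DEX minus control, DEX + TE minus DEX and DEX + TE minus control; points are the limma estimates, bars their 95% confidence intervals, and red marks a call. In the left panel 39 of 48 points lie below 0 and the called genes are Pcolce at -1.24 and Thbs1 at 2.06, and in the middle panel 38 points lie above 0 and none is called.

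The promoters of Pcolce, the gene called lower, and of Postn, the gene with the largest fall by value, are shown as a reference for the sequence next to their starts. RefSeq gave promoter windows for 32 of the members (36 windows on GRCm38.p6), and Thbs1, Lum, Dcn, Fn1 and Tgfb3 were among the members without an entry. The 250 bases before each start are printed in the gene's own direction, on the minus strand of chr5:137611405-137611654 for Pcolce and on the plus strand of chr3:54359017-54359266 and chr3:54360857-54361106 for the 2 starts of Postn. Capitals mark the motifs found.
Pcolce: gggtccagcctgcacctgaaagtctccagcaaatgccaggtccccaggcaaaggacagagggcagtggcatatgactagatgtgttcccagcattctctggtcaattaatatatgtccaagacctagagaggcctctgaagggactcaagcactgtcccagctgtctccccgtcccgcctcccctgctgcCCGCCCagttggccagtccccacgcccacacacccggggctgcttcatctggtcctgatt
Postn, upstream start: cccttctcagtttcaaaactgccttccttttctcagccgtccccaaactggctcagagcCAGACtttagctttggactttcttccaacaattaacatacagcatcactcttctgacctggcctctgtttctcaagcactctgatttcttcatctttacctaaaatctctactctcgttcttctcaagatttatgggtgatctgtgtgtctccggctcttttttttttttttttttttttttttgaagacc
Postn, downstream start: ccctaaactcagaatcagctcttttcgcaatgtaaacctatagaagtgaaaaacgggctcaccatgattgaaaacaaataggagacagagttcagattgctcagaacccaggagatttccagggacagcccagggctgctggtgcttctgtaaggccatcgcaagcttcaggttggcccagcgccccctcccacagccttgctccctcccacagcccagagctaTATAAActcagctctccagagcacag

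The 6 motifs searched on both strands were the TATA box (TATAAA), the CCAAT box (CCAAT), the GC box (GGGCGG), the AP-1 site (TGAGTCA), the glucocorticoid half-site (AGAACA) and the Smad box (CAGAC), none of which contains another. Pcolce held 1 GC box, read as its complement 60 bases before the start. The upstream window of Postn held 1 Smad box 191 bases before the start, and the downstream window a TATA box 26 bases before it. Over the 36 windows of the members, a GC box was found in 52.8% (32.7% of all 32851 windows), a Smad box in 55.6% (42.2%), a TATA box in 22.2% (12.4%), a CCAAT box in 22.2% (33.8%), an AP-1 site in 2.78% (4.46%) and a glucocorticoid half-site in 16.7% (16.1%). These shares describe letters in a short window only.

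The small leucine-rich proteoglycans bind collagen fibrils and regulate their diameter. All 7 were lower by value in DEX than in control, 4 of them at an unadjusted p under 0.05, and none was called (median log2 difference -0.50). Lumican (Lum), a keratan sulphate proteoglycan, gave signals of 1236.8, 1816.4 and 1840.9 in control, 455.8, 715.4 and 771.9 in DEX, and 1089.7, 830.2 and 909.0 in DEX + TE. The DEX arrays of Lum thus lay below every other array, and the DEX + TE arrays lay between both other groups without overlap. Its log2 difference from control was -1.35 ± 0.25 (SE, n = 3 per group) in DEX, with an adjusted p of 0.0772 in limma. Fibromodulin (Fmod), which guides fibril assembly, was at -0.77, osteoglycin (Ogn) at -0.57, decorin (Dcn), which coats fibrils of type I collagen, at -0.50, and asporin (Aspn) at -0.46. Biglycan (Bgn) was at -0.27 with a 95% confidence interval of -0.86 to 0.32, and Prelp, a collagen-anchoring member, at -0.07 (-0.56 to 0.42). Other probe sets of Bgn were at -0.48 and 0.12. The signals of Dcn ranged from 16427.5 to 23699.1 in control, from 13909.5 to 15541.8 in DEX and from 18442.6 to 21098.8 in DEX + TE.

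The 12 adhesive and matricellular glycoproteins, which link cells to the matrix or modify that contact, held both the largest fall and the only rise called. By value 11 were lower in DEX (median -0.62), 7 of them at an unadjusted p under 0.05. Periostin (Postn), a matricellular protein of load-bearing tissue, ranged from 505.3 to 927.1 in control, from 88.1 to 326.8 in DEX and from 241.7 to 312.2 in DEX + TE. Its log2 difference of -1.74 in DEX had a standard error of 0.48, the widest of the 48 members, and an adjusted p of 0.173. Fibronectin (Fn1), a scaffold on which other matrix proteins assemble, was at -0.98, and Sparcl1, a relative of Sparc, at -0.87. Dermatopontin (Dpt), which binds decorin, was at -0.74, and thrombospondin-4 (Thbs4), a protein of the muscle to tendon junction, at -0.65. Sparc, a collagen-binding glycoprotein, was at -0.51 with an interval of -0.78 to -0.23. Tenascin-C (Tnc), versican (Vcan) and thrombospondin-2 (Thbs2) were between -0.35 and -0.29 on the chosen probe sets, with intervals that included 0. Other probe sets of Thbs2 were at -0.48, with all DEX arrays below control, and at -0.70, with overlap. Of the 3 other probe sets of Vcan tested, 1 was at -0.23 and 2 were at -1.92 and -1.94. The last 2 had all DEX arrays below control and no call (adjusted p 0.192 and 0.119 in limma). They reached the mean signal required for testing in control alone, the group where they were high, so no conclusion is drawn from their falls.

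Thbs1, whose product activates latent TGF-beta and restrains vessel growth, went the other way. Its signals were 107.2, 129.5 and 108.5 in control, 386.1, 606.1 and 468.0 in DEX, and 365.7, 520.7 and 480.0 in DEX + TE. All 6 arrays of DEX-treated mice lay above all control arrays, and the DEX and DEX + TE arrays overlapped. The rise was 4.17-fold in DEX (log2 difference 2.06 ± 0.21, SE, n = 3 per group, adjusted p 0.0133 in limma), and a second probe set of the gene was at 1.35 (adjusted p 0.0808). In DEX + TE the log2 difference from control was 1.97 (adjusted p 0.0149), and between DEX + TE and DEX it was -0.09 with a 95% confidence interval of -0.57 to 0.39. Without control replicate 3 the adjusted p of the DEX difference was 0.0536, and in a fit on only the 6 arrays compared it was 0.0620. The difference of DEX + TE from control lost its call without control replicate 1 or 3 or DEX + TE replicate 2 or 3, its adjusted p reaching 0.0751.

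**Figure D2:**
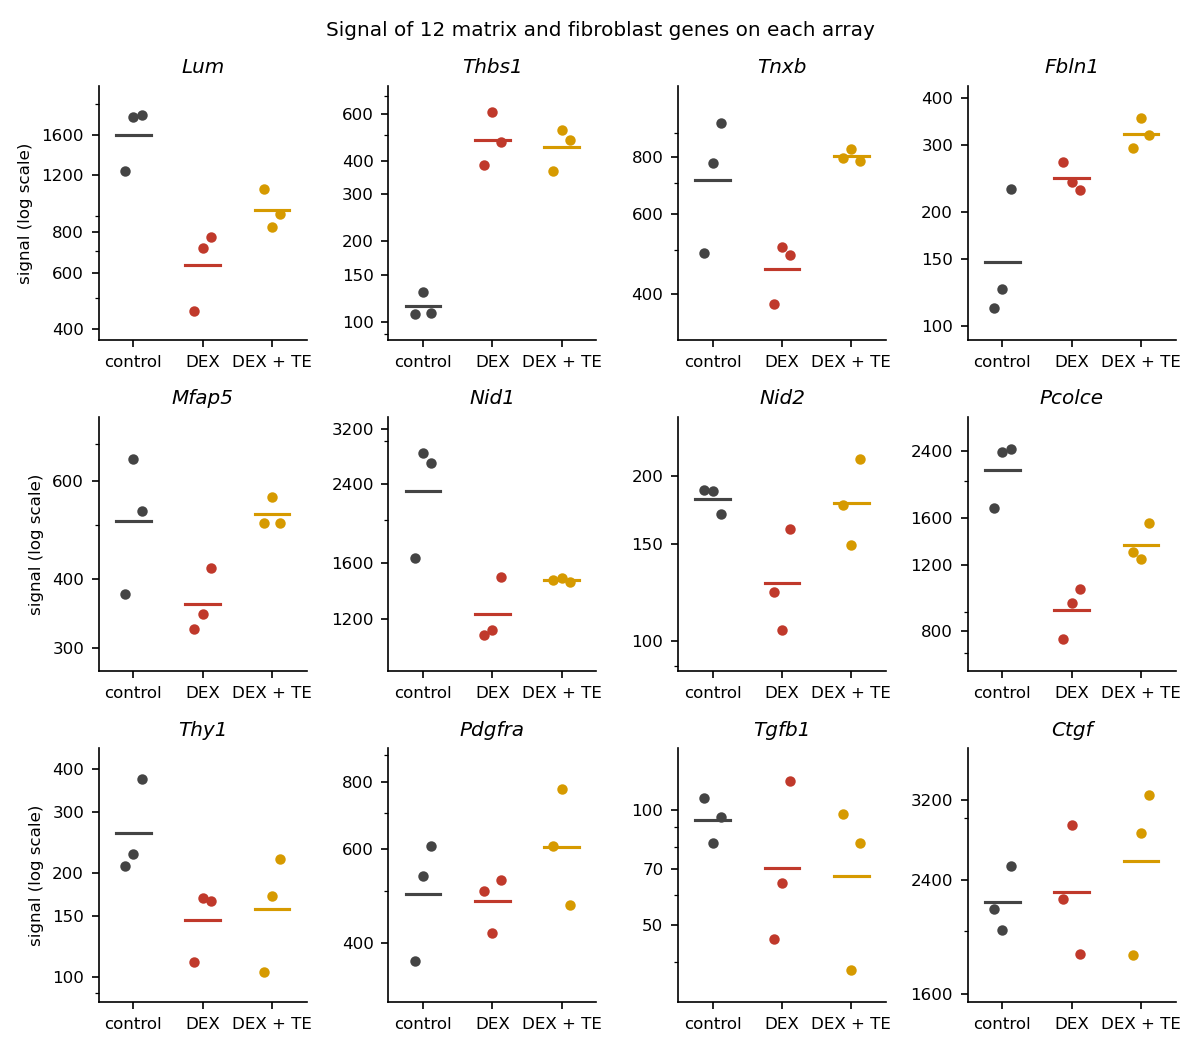
Signal on each array (points; vertical axis on a log scale, one range per panel) for 12 genes in control, DEX and DEX + TE muscle; the bar is the geometric mean of the 3 arrays of a group. Thbs1 is at 107.2 to 129.5 in control and at 365.7 or above on every other array, Pcolce and Lum are lowest in DEX with DEX + TE in between, and Pdgfra, Tgfb1 and Ctgf overlap between all groups.

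Tenascin-X (Tnxb), which spaces collagen fibrils, had the largest difference between DEX + TE and DEX on the chosen probe sets. Its signals were 492.3, 774.3 and 949.6 in control, 380.7, 507.7 and 485.8 in DEX, and 795.6, 829.9 and 783.3 in DEX + TE. The DEX + TE arrays were all above the DEX arrays and within the range of control. The difference of DEX + TE from DEX was 0.82 ± 0.24 (SE, n = 3 per group) with an adjusted p of 0.511, and that of DEX from control was -0.65 with an adjusted p of 0.282.

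Among the elastic fibre and microfibril proteins, which give tissue its recoil, 4 of the 6 tested were lower by value in DEX (median -0.31) and none was called. Fibulin-1 (Fbln1), an elastic fibre and basement membrane protein, was 1 of the 2 that were higher by value, the other being Emilin1. Its signals were 111.8, 125.7 and 229.9 in control, 270.6, 240.8 and 228.5 in DEX, and 295.1, 353.1 and 318.8 in DEX + TE. Control replicate 3 overlapped the DEX arrays, and all DEX + TE arrays lay above both other groups. The log2 difference was 0.73 in DEX and 1.12 ± 0.26 (SE, n = 3 per group) in DEX + TE against control, with adjusted p of 0.262 and 0.148 in limma. Its other 2 probe sets were also higher in DEX, by 0.47 and 0.53.

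Mfap5, a microfibril glycoprotein, gave 376.1, 658.3 and 530.5 in control, 324.3, 345.1 and 418.4 in DEX, and 505.7, 563.4 and 504.5 in DEX + TE. The DEX + TE arrays were all above the DEX arrays, and the control arrays overlapped both (log2 differences -0.50 for DEX against control and 0.54 for DEX + TE against DEX). On the other probe set of Mfap5 the arrays of both DEX-treated groups lay below control, at -0.89 in DEX and -0.59 in DEX + TE. There DEX + TE overlapped DEX, with a difference of 0.30. Fibulin-5 (Fbln5), which organises elastic fibres, was at -0.39 in DEX, fibulin-2 (Fbln2) at -0.36, elastin (Eln) at -0.27 and Emilin1 at 0.08.

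The basement membrane genes were uneven (median -0.35, 7 of 8 lower by value, none called). Nidogen-1 (Nid1), which bridges the laminin and collagen IV networks, gave 1645.5, 2819.0 and 2679.3 in control, 1104.4, 1134.7 and 1493.5 in DEX, and 1466.5, 1483.2 and 1449.5 in DEX + TE. Both DEX-treated groups lay below control without overlap, the log2 difference being -0.91 in DEX (adjusted p 0.139) and -0.66 in DEX + TE (adjusted p 0.271). A second probe set of Nid1 was at -0.43 in DEX and at -0.11 in DEX + TE against control, and both groups overlapped control on it. Nidogen-2 (Nid2), its relative, gave 188.0, 187.1 and 170.4 in control, 122.8, 104.9 and 160.1 in DEX, and 176.9, 149.7 and 214.5 in DEX + TE. The DEX arrays of Nid2 lay below control, whereas DEX + TE overlapped both groups (-0.51 for DEX against control, 0.49 for DEX + TE against DEX).

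The laminin chains did not move together. Lamb1 was at -0.59 in DEX and Lamb2 at 0.42, and neither was called (adjusted p 0.371 and 0.237). Lamb2, the beta chain concentrated at the neuromuscular junction, ranged from 525.5 to 699.6 in control, from 785.3 to 883.1 in DEX and from 638.2 to 755.0 in DEX + TE. Its DEX arrays lay above both other groups, and it was the only member whose DEX + TE arrays all lay below the DEX arrays. Lama2, the alpha chain of adult muscle fibres, was at -0.03 (95% confidence interval -0.39 to 0.33), Lama4, the vascular alpha chain, at -0.07 (-0.45 to 0.31) and Lamc1 at -0.18 (-0.47 to 0.10). Perlecan (Hspg2), the basement membrane proteoglycan, was at -0.70 with an interval of -1.63 to 0.23.

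Among the 8 collagen processing and cross-linking genes tested, 6 were lower by value in DEX (median -0.21), and Pcolce was the one called. Its product speeds removal of the C-terminal propeptide of fibrillar procollagens. The signals of Pcolce were 1693.7, 2390.9 and 2425.8 in control, 761.9, 949.9 and 1035.5 in DEX, and 1300.2, 1242.5 and 1543.8 in DEX + TE. The 3 groups did not overlap, with DEX lowest and DEX + TE in between. The fall in DEX was 2.36-fold (log2 difference -1.24 ± 0.19, SE, n = 3 per group, adjusted p 0.0490 in limma), and a second probe set was at -0.81 (adjusted p 0.0524). The difference between DEX + TE and DEX was 0.58 (adjusted p 0.560), and that between DEX + TE and control was -0.66 (adjusted p 0.209). The call on Pcolce was lost without the filter on low signal (adjusted p 0.124) and in a fit on only the 6 arrays compared (0.136). It was kept without control replicate 1 alone among the 9 arrays left out in turn, the adjusted p ranging from 0.0465 to 0.145.

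The lysyl and prolyl hydroxylases, which modify collagen inside the cell, and the lysyl oxidases, which cross-link it outside, had smaller differences than Pcolce on the chosen probe sets. Lysyl hydroxylase Plod2 was at -0.65 in DEX (95% confidence interval -1.34 to 0.05) and Plod1 at -0.26 (-0.67 to 0.15). Lox was at -0.20 on the chosen probe set and at 0.53 on its other probe set tested, whose DEX arrays all lay above control (adjusted p 0.196), so that its direction was not settled. Loxl1 was at 0.03, and the prolyl hydroxylase subunits P4ha1 and P4ha2 at -0.09 and 0.26. The collagen chaperone Serpinh1 was at -0.21, and its signals in DEX ranged from 1098.3 to 2726.1, a spread that took in all control arrays.

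The surface proteins of fibroblasts and mural cells were lower by value in DEX in 3 of 3 cases (median -0.22), none called. Thy1, a surface glycoprotein of fibroblasts and neurons, gave 210.3, 227.9 and 375.8 in control, 110.8, 169.2 and 166.2 in DEX, and 103.7, 171.3 and 220.0 in DEX + TE. The DEX arrays of Thy1 were all below control (log2 difference -0.84, adjusted p 0.327), and DEX + TE overlapped both. Pdgfra, the platelet-derived growth factor receptor that marks fibro-adipogenic progenitors, gave 368.9, 532.9 and 608.2 in control, 500.7, 417.3 and 525.4 in DEX, and 607.9, 776.7 and 470.9 in DEX + TE. The groups overlapped, and the log2 difference of Pdgfra was -0.04 in DEX with a 95% confidence interval of -0.61 to 0.53. Pdgfrb, the receptor of pericytes and fibroblasts, was at -0.22 (-0.54 to 0.09).

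Of the TGF-beta ligands and their target Ctgf, 3 were higher and 1 was lower by value in DEX (median 0.18), none called. Tgfb3 ranged from 1284.7 to 1379.2 in control, from 1677.4 to 1872.7 in DEX and from 1608.4 to 1758.7 in DEX + TE. Both DEX-treated groups lay above control without overlap, by 0.41 ± 0.09 (SE, n = 3 per group, adjusted p 0.119) and 0.34 (adjusted p 0.197). Tgfb2 was at 0.31 in DEX (adjusted p 0.321), and its 3 other probe sets were at -0.02, -0.01 and 0.25. Tgfb1, the ligand best known from fibrosis, gave 107.3, 81.6 and 95.5 in control, 45.9, 64.3 and 119.0 in DEX, and 97.7, 38.2 and 81.7 in DEX + TE. It lay under 50 on 2 arrays and overlapped between all groups (log2 difference -0.42, interval -1.44 to 0.61). Ctgf, a matricellular protein induced by TGF-beta, gave 2169.8, 2013.7 and 2525.4 in control, 2250.0, 2923.9 and 1847.6 in DEX, and 1836.5, 2849.2 and 3257.3 in DEX + TE. Its groups overlapped as well, at 0.05 for DEX against control (-0.55 to 0.64) and 0.16 for DEX + TE against DEX (-0.43 to 0.75).

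The comparison of DEX + TE with DEX asked how the genes stood when the extract was added. It shares the DEX arrays with the comparison of DEX and control, so that a low DEX array pushes both in opposite directions. No member was called, beside 0.00732% of all genes called lower and 0% called higher. By value 38 of 48 members were higher in DEX + TE (median 0.23, range -0.27 to 0.82), whereas the median of all genes was 0.04. In limma 9 of 48 members were higher at an unadjusted p under 0.05, against 5.96% of all genes, and none was lower, against 1.49%. In 10 members all DEX + TE arrays lay above all DEX arrays (9.73% of all genes), and in 1 member, Lamb2, all lay below (5.27%).

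These counts depended on the arrays and on their scaling. The count of 9 was 4 without DEX replicate 1, DEX replicate 2 or DEX + TE replicate 2, and 3 without DEX + TE replicate 3. When each array was centred on its median, the median of all genes moved from 0.04 to -0.22 and that of the members from 0.23 to -0.03, after which 2 members passed the unadjusted threshold toward higher signal and 5 toward lower signal. Centring moves all genes of an array by the same amount. The members therefore stayed at 0.19 relative to the median of all genes by construction, which is no check of the difference. The median signal over all probe sets was 84.7 or more on each DEX + TE array and 77.7 or less on each DEX array, and its part in this comparison was not tested beyond that centring.

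By role, the medians for DEX + TE against DEX were 0.43 for the small leucine-rich proteoglycans (7 of 7 higher by value), 0.36 for the adhesive and matricellular glycoproteins (11 of 12) and 0.27 for the elastic fibre proteins (5 of 6). After median centring these were 0.18, 0.10 and 0.02. The medians of 0.21 for the basement membrane, 0.15 for collagen processing and 0.11 for the surface proteins turned to -0.05, -0.10 and -0.14 under that centring, while quantile normalization left them at 0.21, 0.15 and 0.14. The median of the TGF-beta group was -0.07, and 0.07 when all probe sets of a gene were averaged. Median centring lowered the median of this group too, by the same amount as in the other roles. Besides Tnxb, the largest values on the chosen probe sets were 0.72 for Dpt and 0.71 for Tgfbi, which encodes a TGF-beta-induced adhesion protein. Pcolce followed at 0.58, Lum at 0.57 and Ogn at 0.56. All DEX + TE arrays of these 5 genes lay above all DEX arrays, and their adjusted p in limma lay between 0.506 and 0.649. Thbs4, Sparc and Vcan were close to 0, at 0.02, 0.07 and 0.03. Some other probe sets had larger differences than Tnxb. Fmod was at 0.43 on its chosen probe set and at 0.26 to 0.99 on its others, and the others of Tgfbi were at 0.69 to 0.86.

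**Figure D3:**
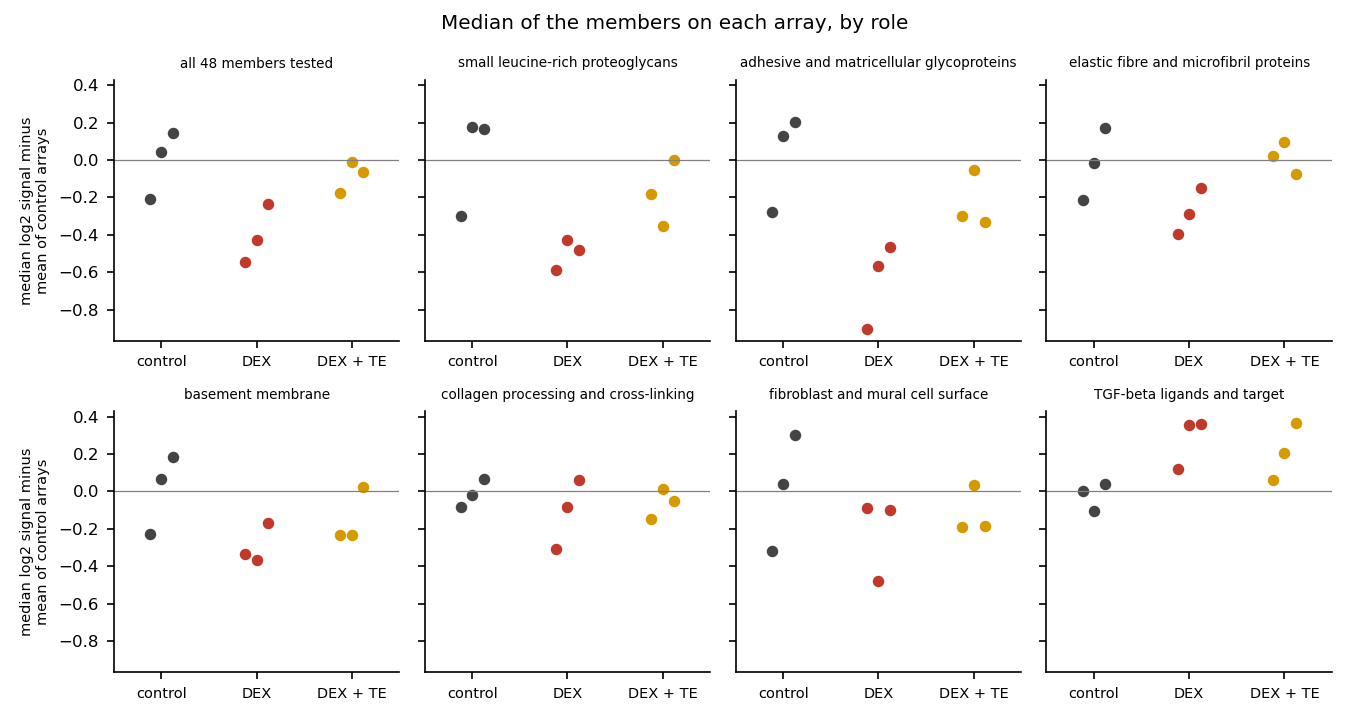
Median log2 signal of the members on each array, minus the mean of the control arrays, for all 48 members tested and for each of the 7 roles; each point is 1 array. For all members the control arrays lie at -0.21, 0.04 and 0.15, the DEX arrays between -0.55 and -0.24 and the DEX + TE arrays between -0.18 and -0.01, and only in the TGF-beta panel do all DEX arrays lie above 0.

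Against control, DEX + TE muscle had 1 member called higher, Thbs1 (0.278% of all genes were called higher), and none called lower (0.176%). By value 32 of 48 members were lower, with a median of -0.08 beside 0.02 for all genes, and the range was -1.24 for Postn to 1.97 for Thbs1. In limma 8 members were lower at an unadjusted p under 0.05 (6.78% of all genes) and 3 were higher (7.64%). In 10 members all DEX + TE arrays lay below control (12.3% of all genes) and in 4 all lay above (12.4%). The 8 were 4 without control replicate 2 and 5 without control replicate 3 or DEX + TE replicate 2. On the chosen probe sets Thbs4, Sparc and Sparcl1, at -0.63, -0.44 and -0.61, remained below control without overlap in DEX + TE. Dpt, Ogn, Mfap5 and Dcn, at -0.02, -0.01, 0.04 and -0.08, overlapped control on theirs. Other probe sets differed, as those of Sparc overlapped control, at -0.42 and 1.48. That of Mfap5 lay below control without overlap at -0.59, and that of Ogn above control without overlap at 0.17. Whether these genes differ from each other in their response to TE was not tested.

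On the median over all 48 members, the DEX arrays stood at -0.55, -0.43 and -0.24 relative to the control mean, the control arrays at -0.21, 0.04 and 0.15, and the DEX + TE arrays at -0.18, -0.01 and -0.06. All DEX arrays thus lay below all control arrays, but DEX replicate 3 was only slightly below control replicate 1. With all genes tested split by mean signal into 4 bins of equal size, the dimmest bin held 1 member, the next 11, the next 23 and the brightest 13. In the brightest bin the 13 members had a median of -0.57 in DEX against control and the genes of that bin -0.02. For DEX + TE against DEX the median of all genes was 0.36 in the dimmest bin and -0.03 in the brightest, where the members were at 0.25.

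A further 44 probe sets of 28 members were tested beside the chosen ones. Some of these reached the required mean signal in only 1 group, among them probe sets of Vcan and Eln. In DEX against control 32 of the 44 had the sign of the chosen probe set (median -0.39), in DEX + TE against DEX 34 (median 0.29), and none was called in any comparison. When all probe sets of a gene were averaged, which 45 members allowed, the member medians were -0.21, 0.26 and 0.02 for the 3 comparisons, so that the last turned from -0.08 to the other side of 0.

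Related genes were read from lists drawn up for the same roles. The 16 collagen chains were all lower by value in DEX, with 5 called (median -0.90), and Col3a1, the chain of type III collagen, was the lowest at -2.77 (adjusted p 0.0114 in limma). Keratocan (Kera) was the 1 gene called among 6 other small leucine-rich proteoglycans (-2.43, adjusted p 0.0420, list median -0.46). None was called among 9 other elastic fibre genes (median -0.37), 7 other basement membrane genes (-0.69) and 8 other collagen processing genes (-0.45), where Pcolce2, a relative of Pcolce, was at -0.77. Among 11 TGF-beta receptors, Smads and regulators (median 0.15), Tgif1, a transcriptional co-repressor of TGF-beta signalling, was called higher at 1.53 (adjusted p 0.0216), and the inhibitory Smad7 was at 0.69 without a call.

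Markers of cell types were read beside the members. All 11 other fibroblast and fibro-adipogenic progenitor markers were lower by value in DEX (median -0.32, none called), and 10 of 11 were higher in DEX + TE than in DEX (median 0.49). The summed signal of these markers was 22292 to 30379 in control, 19112 to 27194 in DEX and 34029 to 38561 in DEX + TE. Gene by gene, however, DEX + TE was not above control, as 6 were lower and 5 higher by value (median -0.07). The sum is weighted toward the brightest genes. Of the 7 tendon cell markers 2, Kera and tenomodulin (Tnmd, -1.90, adjusted p 0.0341), were called lower in DEX, and their summed signal was 2509 to 3536 in control, 1065 to 1363 in DEX and 1613 to 2391 in DEX + TE. Scx, the transcription factor that defines tendon cells, had a group mean of 110 in control and a difference of 0.31. By value 6 of the 7 tendon markers were lower in DEX and 1, Scx, was higher (median -0.82). In DEX + TE against DEX 5 were higher and 2 were lower. Kera is also counted among the other small leucine-rich proteoglycans. What part tendon in the dissected muscle has in the differences was not tested.

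The 8 macrophage markers had a median of -0.67 in DEX (7 lower by value, none called) and 0.77 in DEX + TE against DEX (8 of 8 higher), with summed signals of 1595 to 2611, 1489 to 2095 and 2327 to 2574 in control, DEX and DEX + TE. The 8 endothelial markers had a median of 0.09 and the 8 mural cell markers one of -0.11 in DEX. Among them Cldn5, a tight junction protein of endothelium, was called higher at 1.56 (adjusted p 0.0341). The 4 adipocyte markers tested had medians of 0.78 in DEX and 1.52 in DEX + TE against control, and the 4 Schwann cell markers -0.06 and 0.32. Of the adipocyte markers, 3 were higher and 1 was lower by value in both comparisons, and 1 was called higher in DEX + TE. Their summed signal went the other way, at 20648 to 24601 in control, 16199 to 19760 in DEX and 19897 to 22058 in DEX + TE. The 10 muscle fibre markers, whose summed signal was 550471 to 730602 in control and 414031 to 517142 in DEX, were lower by value in DEX in 10 of 10 cases (median -0.44, none called). Their differences lay between -0.58 and -0.35, so that the members' median of -0.35 was no lower than that of the fibre markers. The part of these cell types in the differences was not tested.

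Of 10 glucocorticoid response genes, Fkbp5 was called higher in DEX (2.26, adjusted p 0.0134), and Ddit4 (-3.87) and Sgk1 (-0.72) were called lower. Fkbp5 and Ddit4 kept their calls in DEX + TE against control (1.88 and -4.10).

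**Figure D4:**
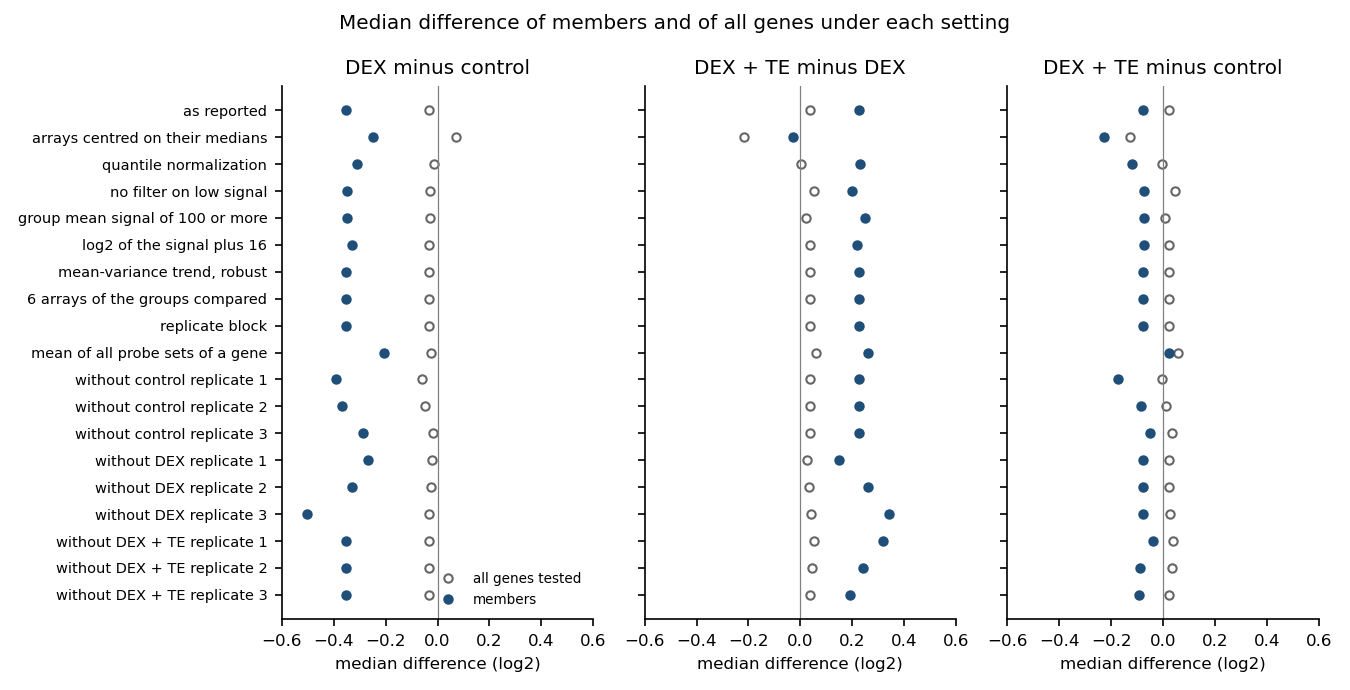
Median log2 difference of the members (filled) and of all genes tested (open) in the 3 comparisons, for the values as reported and for each alternative setting and each array left out. For DEX minus control the members lie between -0.50 and -0.21 in every row, left of all genes, whereas for DEX + TE minus DEX median centring of the arrays moves members and genes together, to -0.03 and -0.22.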

How the data were processed

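RNA from the tibialis anterior of 9 mice was hybridised to Affymetrix mouse arrays. The deposited intensity values are linear, with a 2% trimmed mean of 500 on each array, made with software not given in the sources used here, and are not the Robust Multi-array Average values that the methods describe. Of 45101 probe sets, 64 controls were left out, and 29269 with a group mean of 50 or more (mean of log2 signals) in at least 1 group were tested. Log2 signals, with no offset, were compared with limma 3.58.1 in R 4.3.3 on all 9 arrays, with Benjamini-Hochberg adjustment over all probe sets tested, and other steps ran in Python 3.11.15. The threshold on the log2 difference and the false discovery rate were those of the methods. The methods' own test, Rank Product, was run on the deposited values with 100 permutations as an alternative. Symbols came from the platform annotation, in which 34945 probe sets carry 1 symbol, 932 several and 9160 none. The signal of every array is given for called members and for those with the largest difference in each role in DEX against control and in DEX + TE against DEX. Related lists were limited to called genes and those with the largest differences, except Pcolce2, Smad7 and Scx, which were named for their function after their values were seen. The members and lists were chosen with earlier results of these data known. Replicate numbers did not pair the arrays, as correlations of deviations were -0.021 to 0.048. The number of arrays limits the precision.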

Additional observations from a re-analysis of the deposited data

How the results depend on the processing

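Thbs1 and Pcolce kept the direction of their calls under all limma alternatives, whereas some medians and members without a call changed sign. In DEX against control, 1 member was called lower. This count was 0 without the filter on low signal, 0 with only the 6 arrays compared, 0 with the replicate number as a block and 0 with Rank Product, 3 with a signal of 100 or more required (Lum, Fmod and Pcolce), and 8 with a mean-variance trend and robust fit (Lum, Fmod, Fn1, Sparcl1, Thbs4, Dpt, Nid1 and Pcolce). The 1 member called higher became 0 with 6 arrays and with Rank Product. With arrays left out in turn, both counts ranged from 0 to 1 and the member median from -0.50 to -0.27. In DEX + TE against DEX no limma setting changed the count of 0 called, and the member median was -0.028 after median centring, where 15 members changed sign, and 0.15 to 0.34 with arrays left out. In DEX + TE against control the trend fit called 3 lower (Sparcl1, Thbs4 and Pcolce) and 2 higher (Thbs1 and Fbln1), Rank Product 0 higher, and the count of higher calls was 0 to 1 with arrays left out, the 1 being Fbln1 in place of Thbs1 without control replicate 3. The median there was -0.18 to -0.04 with arrays left out and 0.02 when all probe sets of a gene were averaged. The cause of these changes was not tested. The pairing by replicate number was not borne out by the arrays, and with the replicate block the counts of members called higher stayed at 1, 0 and 1. Rank Product called 48 probe sets lower and 28 higher in DEX against control, and its 0 members stand beside 17 lower and 5 higher at an unadjusted p under 0.05 in limma. The paper applied Rank Product to differently normalized values and listed Fmod and Fn1 as lower in DEX than in control. It also listed Tgfbi as higher in DEX + TE than in DEX. The 0 members here therefore do not stand for the paper's own result. The counts of members at an unadjusted p were added after seeing the data.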
